A study of Mus musculus with 9 samples.

Results

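The response described here is that of MyC-CaP cells after 12 h with NRG1, measured by RNA-Seq and compared with starved cells at 0 h. It rests on 6 of the 9 libraries of the series, 3 labelled 0 h and 3 labelled 12 h, and the 3 libraries labelled 24 h were used to see which changes were still present later. MyC-CaP is a mouse prostate cancer line derived from a tumor driven by a MYC transgene, labelled as epithelial-like, and all libraries come from this 1 line. Before treatment the cells were starved for 6 to 12 h in medium that lacked serum and calcium, and recombinant NRG1 was then given at 15 ng/mL. All 3 groups carry the NRG1 label, and 0 h marks starved cells at the start. Cells kept without NRG1 for 12 or 24 h were not analysed here, so time in the starvation medium and time with NRG1 cannot be told apart. Replicates are labelled as biological, and the cells were plated in triplicate, so p-values measure the spread between these samples. In bulk RNA, fewer cells of a type and less RNA per cell cannot be told apart.

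NRG1 is a ligand of HER3, a receptor that signals as a dimer with another ErbB receptor, above all HER2, and the dimer feeds the PI3K/AKT and MAPK/ERK pathways. MAPK/ERK output drives immediate early genes, whose transcription rises quickly and is shut off again by short-lived mRNAs and by induced phosphatases, whereas entry into the cell cycle brings up replication genes through E2F factors. Targets of hypoxia-inducible factor (HIF) respond to low oxygen and, in many cell types, also to growth factors, and interferon-stimulated genes follow the STAT and IRF factors.

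Depth ran from 28467089 to 37873433 counts at 0 h and from 30920755 to 36177889 at 12 h. Summed epithelial markers (10 of 11 were in the table, among them Krt8, Krt18, Epcam and Cdh1) lay between 3747 and 4388 CPM, counts scaled to the size of the library, in all 9 libraries, while immune markers summed to at most 1.26 CPM and endothelial markers to at most 0.612 CPM. Fibroblast markers summed to 15.4 to 17.9 CPM, and neuroendocrine markers to at most 0.21 CPM. Basal markers, nearly all Krt15 counts, summed to 170.1 to 216.9 CPM at 0 h, 239.8 to 271.5 at 12 h and 151.1 to 180.9 at 24 h, so Krt15 itself moved with time. Replicate 3 at 12 h stood apart from the other 12 h libraries. Chi-square per degree of freedom was 9.92 and 10.1 against replicates 1 and 2, which differed from each other by 4.26. To a lesser degree this was also so for replicate 1 at 0 h. It had 7.44 and 6.62 against replicates 2 and 3, which differed from each other by 4.14. Results that rest on 12 h replicate 3 are given with and without that library.

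To determine what 12 h with NRG1 changed, 11373 genes with enough counts were compared between 12 h and 0 h with edgeR. A gene was called when its adjusted p was at most 0.05 and its change at least 1.5-fold, which 261 genes met (2.29% of those tested), 152 higher (1.34%) and 109 lower (0.958%). With the adjusted p alone (25.5% of genes), 1547 genes rose (13.6%) and 1349 fell (11.9%). In 256 of the 261 called genes the 3 libraries at 12 h did not overlap those at 0 h, as was also so for 38.4% of all genes tested (19.9% higher and 18.5% lower). Only 65 of the called genes changed by 2-fold or more, and 136 had a mean of at least 5 CPM over the 9 libraries. The called falls sat among weakly expressed genes, with a median of 1.85 CPM against 12.5 CPM for the called rises. Median log2 fold change over all genes tested was −0.003.

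Among called genes of at least 5 CPM, the largest rises were of genes with mixed functions. Cxcl1, a neutrophil-attracting chemokine, measured 8.98, 11.1 and 9.87 CPM at 0 h and 24.1, 20.3 and 30.3 CPM at 12 h. Its log2 fold change was 1.31 ± 0.12 (SE; edgeR adjusted p = 1.93e-06). Every 12 h library was above every 0 h library, and replicate 3 was the highest. Spp1, which encodes the secreted phosphoprotein osteopontin, measured 440.8, 475.3 and 451.8 CPM at 0 h and 840.3, 894.0 and 922.2 CPM at 12 h, a log2 difference of 0.96 ± 0.04 (edgeR adjusted p = 3.19e-10). Here the 12 h libraries lay close together and far above 0 h, although 18.8% of the exonic bases of Spp1 overlap another gene on the same strand. Other rises of this size were Rab11fip5, a Rab11 effector (log2 1.45), Eda2r, a TNF receptor family member (1.33), Plk3, a stress-responsive polo-like kinase (1.04), Smtn, a cytoskeletal protein of smooth muscle (1.01), Gch1, the first enzyme of tetrahydrobiopterin synthesis (0.97), and Ulbp1, an NKG2D ligand (0.97). For Smtn, 16.3% of the exonic bases overlap a gene on the opposite strand.

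The largest falls were of a mixed set. Rab3il1, an exchange factor for Rab proteins, measured 17.8, 15.4 and 19.1 CPM at 0 h and 8.77, 8.97 and 8.12 CPM at 12 h, a log2 fold change of −1.01 ± 0.11 (edgeR adjusted p = 5.66e-06). Dmpk, the myotonic dystrophy kinase, measured 59.8, 65.5 and 60.5 CPM at 0 h and 36.8, 36.6 and 29.8 CPM at 12 h, a log2 fold change of −0.85 ± 0.07 (edgeR adjusted p = 7.07e-07). Both genes had all 12 h libraries below all 0 h libraries, and Dmpk was back up in part at 24 h, by 0.48 on the log2 scale (edgeR adjusted p = 0.00119). The others were Nrbp2 (log2 −0.97), Aifm3 (−0.92), Entpd3, an ectonucleotidase (−0.81), Apof, an apolipoprotein (−0.80), Fgfr3, a fibroblast growth factor receptor (−0.75), the chemokine Cxcl17 (−0.73), Adhfe1 (−0.72) and Fam161a (−0.69). Of these, Fgfr3 shares 13.9% of its exonic bases with a gene on the opposite strand. The fall of Cxcl17 came to −0.58 without 0 h replicate 1 and without 12 h replicate 2, under the 1.5-fold threshold in both cases.

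To ask which changes were transient, each gene called at 12 h was tested between 24 h and 12 h in the same fit. Both comparisons use the 12 h libraries, so a 12 h value that is high for any reason pushes the first up and the second down, and the class is a description with no test of its own. Between 12 and 24 h, 572 genes passed the adjusted p (5.03%), 224 higher (1.97%) and 348 lower (3.06%) at 24 h, and 33 were called (0.29%), 23 higher (0.202%) and 10 lower (0.0879%). The change was called at 12 h and called back at 24 h, with 1.5-fold in each step, in 14 genes. Of these, 5 rose and came down (0.044% of genes tested), among them Krt13, Adm, Atf3 and Mansc1. The other 9 fell and came up (0.0791%), namely Irf7, Oasl2, Apol9b, Tle2, Prkcb, Msh5, Plpp3, Nupr1l and Gm10800. With the adjusted p alone in both steps, 245 genes rose and came down (2.15%) and 132 fell and came up (1.16%). By this second measure 30 of the 261 called genes were on their way back at 24 h, 18 of the rises and 12 of the falls.

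**Figure D1:**
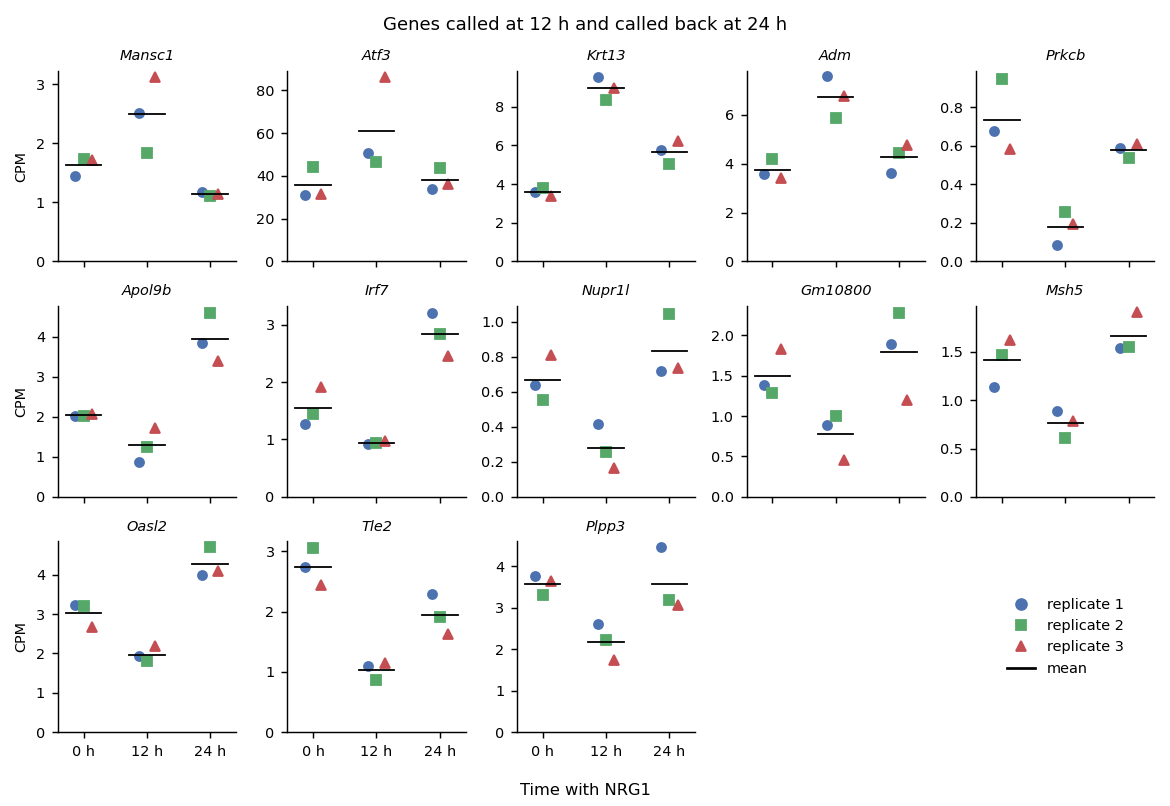
Levels in CPM (vertical axes, from 0, 1 scale per gene) of 13 of the 14 genes called at 12 h against 0 h and called in the opposite direction at 24 h against 12 h. Points are single libraries, marked by replicate number, and bars are means of 3 libraries; the 12 h value of replicate 3 lies far above the other libraries for Atf3, at 86.4 CPM, and close to them for Krt13 and Irf7.

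Krt13 (chr11:100117327-100121566, minus strand, GRCm38), a keratin of the upper layers of stratified epithelia, measured 3.58, 3.81 and 3.37 CPM at 0 h, 9.55, 8.36 and 8.97 CPM at 12 h, and 5.76, 5.05 and 6.21 CPM at 24 h. The 3 groups did not overlap at all, with 24 h between the other two. It rose by 1.32 ± 0.11 (edgeR adjusted p = 8.9e-07) and its 24 h against 12 h change was −0.66 (edgeR adjusted p = 0.0019). Of the 20 keratin genes tested, 10 rose by the adjusted p (13.6% of all genes did). Of the 10, 4 came down at 24 h by the adjusted p (2.15% of all genes rose and came down, or 245 of the 1547 that rose). These were Krt13, Krt78 (0.36, then −0.46), the basal keratin Krt15 (0.44, then −0.65) and Krt6a, a keratin of activated epithelium (0.69, then −0.37), of whose exonic bases 24.8% overlap a gene on the opposite strand. Krt76 rose by 1.04, and its 24 h against 12 h change of −0.60 did not pass (edgeR adjusted p = 0.0677). The keratins other than Krt13 were chosen after their values were seen. The transient call of Krt13 was lost without 24 h replicate 2, the lowest of its 24 h libraries.

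Adm (chr7:110627661-110629820, plus strand) encodes adrenomedullin, a secreted vasodilator peptide whose gene is a HIF target. Its levels were 3.58, 4.21 and 3.4 CPM at 0 h, 7.60, 5.85 and 6.75 CPM at 12 h, and 3.64, 4.46 and 4.76 CPM at 24 h. The 12 h libraries stood clear of both other groups, and the 0 h and 24 h libraries overlapped. The rise was 0.85 ± 0.14 (edgeR adjusted p = 0.000263) and the drop −0.65 (edgeR adjusted p = 0.0109), and both calls held without 12 h replicate 3. They did not both hold without 12 h replicate 1 or without 24 h replicate 1.

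Atf3 (chr1:191170296-191218039, minus strand), a stress-induced transcription factor of the ATF/CREB family, measured 31.1, 44.3 and 31.7 CPM at 0 h, 50.5, 46.5 and 86.4 CPM at 12 h, and 33.8, 43.7 and 36.1 CPM at 24 h. Replicate 3 was far above every other library, whereas 12 h replicate 2 was only just above 0 h replicate 2. The log2 fold change of 0.77 ± 0.18 (edgeR adjusted p = 0.00492) came down to 0.45 without 12 h replicate 3, below 1.5-fold (edgeR adjusted p = 0.00611). The transient call was lost without that library, with DESeq2, and without any 1 of the 24 h libraries. Mansc1, a membrane protein gene at low counts, measured 1.46, 1.74 and 1.71 CPM at 0 h, 2.51, 1.83 and 3.13 CPM at 12 h, and 1.18, 1.11 and 1.15 CPM at 24 h. Its rise of 0.60 ± 0.21 (edgeR adjusted p = 0.0412) did not survive 5 of the 9 single-library omissions. These were the fits without each 0 h library in turn (log2 0.53, 0.65 and 0.64), without 12 h replicate 1 (0.59) and without 12 h replicate 3 (0.42).

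Of the 9 transient falls, 3 are interferon-stimulated genes. Irf7 (chr7:141262706-141266481, minus strand), a transcription factor that amplifies the type I interferon response, measured 1.28, 1.45 and 1.92 CPM at 0 h, 0.922, 0.933 and 0.979 CPM at 12 h, and 3.21, 2.84 and 2.45 CPM at 24 h. The 3 groups did not overlap, with 12 h lowest and 24 h highest. The 12 h change was −0.72 ± 0.23 on the log2 scale (edgeR adjusted p = 0.0286), and it was 1.57 from 12 to 24 h (edgeR adjusted p = 0.000402). The fall at 12 h missed the threshold without 0 h replicate 3 (−0.53), 12 h replicate 1 (−0.70) or 12 h replicate 2 (−0.71).

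Oasl2 (chr5:114896936-114912234, plus strand), an oligoadenylate synthetase-like gene, measured 3.23, 3.21 and 2.67 CPM at 0 h, 1.93, 1.80 and 2.19 CPM at 12 h, and 4.0, 4.70 and 4.10 CPM at 24 h. Again 12 h was lowest and 24 h highest with no overlap. The fall was −0.62 ± 0.16 (edgeR adjusted p = 0.0081), and it was under 1.5-fold without 0 h replicate 1 (−0.58), 0 h replicate 2 (−0.57) or 12 h replicate 2 (−0.57). Apol9b (chr15:77729039-77736382, plus strand), of the apolipoprotein L family, measured 2.02, 2.02 and 2.06 CPM at 0 h, 0.866, 1.25 and 1.73 CPM at 12 h, and 3.83, 4.58 and 3.39 CPM at 24 h. Its 12 h libraries were spread, with replicate 3 nearest to 0 h, and the fall of −0.68 ± 0.23 (edgeR adjusted p = 0.0353) became −0.94 without replicate 3. It was not called without any 1 of the 0 h libraries (−0.69, −0.68 and −0.67 without replicates 1, 2 and 3), nor without replicate 1 (−0.45) or replicate 2 (−0.68) at 12 h. Apol9a is a close paralog, and reads shared with it were not resolved.

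The other transient falls had no common role. Tle2, a Groucho corepressor, measured 2.73, 3.05 and 2.44 CPM at 0 h, 1.09, 0.868 and 1.14 CPM at 12 h, and 2.29, 1.91 and 1.63 CPM at 24 h, a clear gap at 12 h. It fell by 1.41 on the log2 scale (edgeR adjusted p = 9.49e-05). Prkcb, protein kinase C beta, rested on 19, 36 and 20 counts at 0 h against 3, 8 and 6 counts at 12 h and 18, 18 and 24 counts at 24 h. Its log2 fold change was −2.06 ± 0.41 (edgeR adjusted p = 0.00151). Msh5, a meiotic MutS homolog, changed by −0.89, Plpp3, a lipid phosphate phosphatase, by −0.70, Nupr1l by −1.21 and Gm10800, a predicted gene that the naming rule left out, by −0.93. Without 12 h replicate 3 the transient call was lost for Plpp3 (−0.55), Nupr1l (−0.94) and Gm10800 (−0.66), in all of which replicate 3 was the lowest 12 h library. Of these 3, Plpp3 lost it also without 0 h replicate 3, 12 h replicate 2, or 24 h replicate 1 or 2, and Nupr1l and Gm10800 in 6 and 5 other single-library omissions. Tle2 lost it without replicate 1 or 2 of either 12 or 24 h, Prkcb without 12 h replicate 1 or any 24 h library, and Msh5 without 0 h replicate 3, 12 h replicate 2 or 24 h replicate 3. Over all 14 genes, 9 kept the transient call without 12 h replicate 3.

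Hypoxia and glycolysis genes formed the largest listed group among the transient rises. Of 26 tested entries (Aldoa is present under 2 identifiers), 17 rose by the adjusted p, against 13.6% of all genes tested. Of these, 12 came down again at 24 h (2.15% of all genes rose and came down, or 245 of the 1547 that rose). The median log2 fold change of the list was 0.18 at 12 h and 0.004 at 24 h against 0 h. Only Adm was called, where 1.34% of all genes were called higher. Ero1l, an oxidoreductase of the endoplasmic reticulum (log2 0.56), Higd1a, a mitochondrial protein (0.54), the glucose transporter Slc2a1 (0.39), the mitophagy receptor Bnip3 (0.30), Ankrd37 (0.30), the oxygen sensor Egln1 (0.27), the glycolytic enzymes Hk1 (0.26), Pfkp (0.25), Aldoc (0.20) and Ldha (0.16), and Bnip3l (0.10) were the others that rose and came down. Higd1a measured 114.9, 113.9 and 111.4 CPM at 0 h, 168.6, 157.6 and 168.3 CPM at 12 h, and 130.1, 129.7 and 133.0 CPM at 24 h. The 3 groups were fully apart and each was tight. Ankrd37 measured 24.3, 25.9 and 22.6 CPM at 0 h, 30.3, 28.6 and 30.6 CPM at 12 h, and 21.5, 21.2 and 20.6 CPM at 24 h, so that 24 h lay below 0 h. Of other HIF targets, Car9 (0.29) and Vegfa (0.25) rose at 12 h, with 24 h against 12 h changes of −0.03 and −0.11 (edgeR adjusted p = 0.887 and 0.290). Outside the list, the lipid droplet protein gene Hilpda rose by 0.37 and then changed by −0.41, and the glycogen branching enzyme gene Gbe1 rose by 0.59 and then changed by −0.49 (both, and the list members given here other than Adm, were chosen after their values were seen). Genes on the opposite strand overlap 26.4% of the exonic bases of Ankrd37, 22.5% of those of Higd1a and 22.3% of those of Bnip3. The 12 h rise of this list did not rest on replicate 3, since its median was 0.21 without that library and 15 members still rose.

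Promoter windows of the genes that moved together were searched for short motifs. RefSeq windows of 300 bases, 250 before and 50 after a start site on GRCm38.p6, were found for 9089 of 11371 symbols tested, as 11635 windows. The core of the hypoxia response element, searched as ACGTG and GCGTG on both strands, is short and is also part of the E box CACGTG. It was present in 62.7% of all windows, in 74.7% of the 257 windows of genes that rose and came down, and in 29 of 35 windows of the hypoxia list, or 82.9%. In genes that fell and came up the share was 54.4%. Other lists searched had 75% (ATF4 targets), 61.3% (immediate early), 59.5% (replication) and 40% (interferon-stimulated). Genes with several start sites have several windows, and the shares were not tested. Shares of a gene list, here and below, cover all tested members with a window, whatever their change at 12 h. The 250 bases upstream of Adm (chr7:110627407-110627656, plus strand) and Ankrd37 (chr8:45999851-46000100, minus strand), both HIF targets that rose and came down by the adjusted p, are printed 5′ to 3′ with these cores in capitals. In Adm they begin 90 and 54 bases before the start site, and in Ankrd37 there are 4, of which 2 overlap.
Adm: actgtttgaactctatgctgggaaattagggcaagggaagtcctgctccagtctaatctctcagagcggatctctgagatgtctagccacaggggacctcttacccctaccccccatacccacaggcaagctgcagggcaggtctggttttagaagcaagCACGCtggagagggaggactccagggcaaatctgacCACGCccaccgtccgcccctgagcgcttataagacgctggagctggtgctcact
Ankrd37: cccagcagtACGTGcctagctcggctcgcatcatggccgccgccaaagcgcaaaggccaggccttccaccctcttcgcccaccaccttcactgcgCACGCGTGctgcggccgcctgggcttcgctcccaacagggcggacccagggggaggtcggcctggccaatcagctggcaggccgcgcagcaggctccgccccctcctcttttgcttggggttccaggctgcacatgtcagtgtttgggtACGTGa

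Interferon-stimulated genes were the largest listed group among the transient falls. Of 24 tested members, 10 fell by the adjusted p (11.9% of all genes did). All 10 came up again by 24 h (1.16% of all genes fell and came up, or 132 of the 1349 that fell). The median log2 fold change was −0.27 at 12 h and 0.26 at 24 h against 0 h. Besides Irf7, Oasl2 and Apol9b, the 10 were Irf9 (−0.48) and Stat2 (−0.40), which carry the type I interferon signal to DNA, the RNA sensor Ddx58 (−0.46), Ifit1 (−0.37) and Ifit2 (−0.25), which act on viral RNA and translation, Parp14 (−0.32) and Ifi27 (−0.28), chosen after their values were seen. Stat2 measured 26.6, 26.1 and 25.4 CPM at 0 h, 20.4, 19.9 and 18.8 CPM at 12 h, and 26.7, 26.2 and 26.6 CPM at 24 h. Its 12 h libraries were lowest, and the 0 h and 24 h libraries overlapped. Isg15 (0.12) and Bst2 (0.03), of the same list, did not pass the test at 12 h. The median was −0.29 and 10 members still fell without 12 h replicate 3. Immune cell markers were near 0 in every library, with sums from 0.386 to 1.26 CPM, and lay between 0.776 and 0.902 CPM at 12 h.

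The interferon-stimulated response element, searched as GAAANNGAA on both strands, was present in 14 of the 25 windows found for this list, or 56%, and in 6.91% of all windows. In the 149 windows of all genes that fell and came up its share was 8.72%. Ifit1 (chr19:34640639-34640888, plus strand) has 3 matches, at 109, 103 and 84 bases before the start site, of which the first 2 overlap. Apol9b (first of 2 RefSeq windows, chr15:77728822-77729071, plus strand) has 2 that overlap, at 36 and 30 bases. Capitals mark the matches. Irf7, Oasl2, Irf9 and Ifit2 had no match in their windows, which says only that these letters are not there.
Ifit1: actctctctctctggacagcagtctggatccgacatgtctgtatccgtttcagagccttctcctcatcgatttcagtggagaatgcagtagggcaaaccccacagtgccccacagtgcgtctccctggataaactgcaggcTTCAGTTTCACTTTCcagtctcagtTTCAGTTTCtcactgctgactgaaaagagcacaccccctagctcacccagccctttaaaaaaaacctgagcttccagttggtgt
Apol9b: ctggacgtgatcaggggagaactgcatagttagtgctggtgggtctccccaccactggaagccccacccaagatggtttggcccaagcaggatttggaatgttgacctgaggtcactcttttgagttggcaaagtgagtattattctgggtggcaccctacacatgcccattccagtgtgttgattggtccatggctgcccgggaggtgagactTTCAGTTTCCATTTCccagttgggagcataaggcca

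Immediate early and AP-1 genes also rose and in part came down, but their size at 12 h depended on replicate 3. Of 26 tested, 17 rose by the adjusted p (13.6% of all genes did). Of these, 9 came down at 24 h (2.15% of all genes rose and came down, or 245 of the 1547 that rose). The 4 that were called were Atf3, Ier3, a survival and ERK-regulating gene (0.67), Egr1, a zinc finger factor (0.65), and Fosl1, the AP-1 subunit FRA1 (0.61, chosen after its values were seen). Of all genes tested, 1.34% were called higher. Replicate 3 was the highest of the 3 libraries at 12 h in 23 of the 26 genes (88.5%), against 37.2% of all genes tested. Without it 15 members still rose by the adjusted p, the median fell from 0.27 to 0.22, and each of the 4 called members came in under 1.5-fold, at 0.45 for Atf3, 0.58 for Ier3, 0.46 for Egr1 and 0.58 for Fosl1. Fosl1 itself, of whose exonic bases 57.2% overlap a gene on the opposite strand, was even between libraries, at 25.5, 26.6 and 23.6 CPM at 0 h, 38.0, 36.8 and 40.9 CPM at 12 h, and 27.4, 27.4 and 26.8 CPM at 24 h. Egr1 measured 7.03, 7.87 and 7.61 CPM at 0 h and 10.2, 10.3 and 14.9 CPM at 12 h. All of its 12 h libraries were above 0 h, with replicate 3 well above the other two. ERK feedback genes, which report MAPK output, rose in 5 of 16 cases and fell in 2, against 13.6% and 11.9% of all genes, so that the falls were at the share of all genes. The median was 0.12, and 0.11 without 12 h replicate 3. The 5 were Dusp6, the ERK phosphatase, at 83.0, 80.8 and 81.8 CPM at 0 h and 115.7, 111.8 and 116.6 CPM at 12 h (log2 0.49, and 0.49 without replicate 3), Dusp7 at 0.31, Etv5 at 0.32, Epha2 at 0.36 and Ccnd1 at 0.14 (the last 3 were chosen after their values were seen, and 23.4% of the exonic bases of Ccnd1 overlap a gene on the opposite strand).

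**Figure D2:**
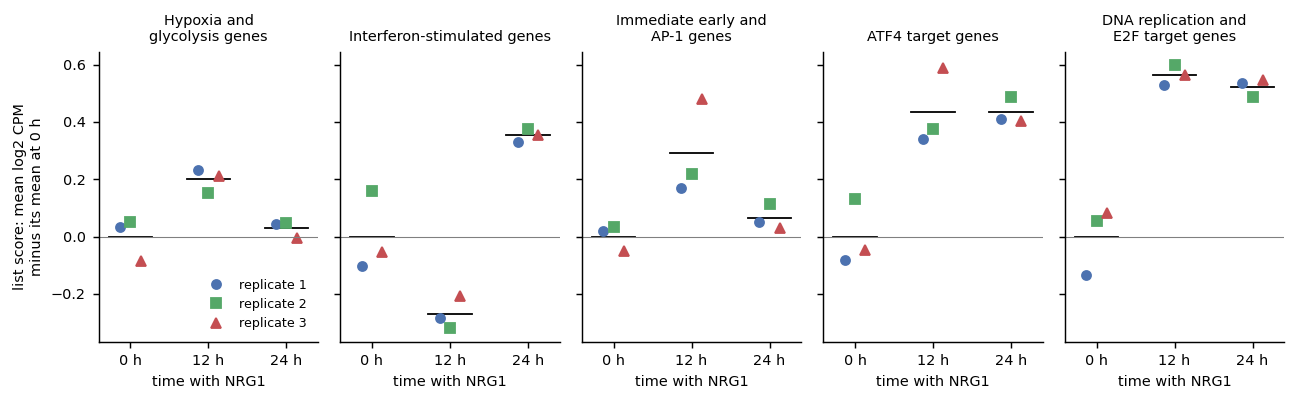
List scores (vertical axis) are averages of log2 CPM over the members, set to 0 at the mean of the 0 h libraries, for 5 gene lists at 0, 12 and 24 h. Points are libraries and bars are means of 3; at 12 h replicate 3 scores 0.48 for immediate early genes against 0.17 and 0.22 in replicates 1 and 2, and lies between or beside the others for hypoxia and replication genes.

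Of 18 tested in the NF-κB and chemokine list, 4 rose by the adjusted p (13.6% of all genes did) and 14 did not pass. The list median was 0.08. All 4 were called (1.34% of all genes were called higher). They were Cxcl2 (1.73), Cxcl1 (1.31) and Cxcl5 (0.84), all ligands of the receptor CXCR2, and Lif (0.64), a cytokine of the IL-6 family. Cxcl1 also came down at 24 h (−0.57, edgeR adjusted p = 0.0101). Nfkbia (−0.03), Nfkb2 (−0.01) and Icam1 (−0.02) did not pass the test. Cxcl17, a chemokine outside the list, fell, as given above. Cxcl5 measured 18.0, 27.0 and 18.3 CPM at 0 h and 31.7, 32.1 and 50.8 CPM at 12 h, so its replicate 3 stood apart at 12 h as replicate 2 did at 0 h. Its log2 fold change was 0.60 without 12 h replicate 3, that of Cxcl2 1.35, and that of Lif 0.46, below the threshold.

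Among p53 targets, 6 of 24 tested rose and 2 fell, where 13.6% and 11.9% of all genes did. Cdkn1a, the cell cycle inhibitor p21, measured 49.2, 52.8 and 40.1 CPM at 0 h, 82.8, 74.0 and 98.6 CPM at 12 h, and 54.3, 57.7 and 58.4 CPM at 24 h. It rose by 0.84 ± 0.09 (edgeR adjusted p = 7.82e-06) and then dropped by 0.58 on the log2 scale, just short of 1.5-fold. Eda2r measured 6.67, 9.73 and 6.24 CPM at 0 h and 13.5, 15.0 and 29.3 CPM at 12 h. Plk3 measured 27.0, 28.6 and 27.8 CPM at 0 h and 45.8, 46.8 and 80.1 CPM at 12 h. In both genes replicates 1 and 2 at 12 h were close and replicate 3 was far higher. Without replicate 3 their log2 fold changes went from 1.33 to 0.91 and from 1.04 to 0.74, and both were still called. Mdm2 (0.13), Bax (0.15) and Ccng1 (−0.06) did not pass the test.

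ATF4 targets, the amino acid and stress response genes, rose at 12 h. Of 25 tested, 21 rose by the adjusted p (13.6% of all genes did). The median against 0 h was 0.41 at both 12 h and 24 h. The called members were Chac1, a glutathione-degrading enzyme (0.75), Aldh1l2, a mitochondrial folate enzyme (0.69, with 14.1% of its exonic bases overlapping a gene on the opposite strand), Nupr1, a stress-induced chromatin protein (0.68), and Trib3 (0.67, chosen after its values were seen). The share of all genes called higher was 1.34%. Chac1 measured 20.3, 22.4 and 19.0 CPM at 0 h, 29.9, 32.0 and 42.1 CPM at 12 h, and 31.0, 34.6 and 33.7 CPM at 24 h. Replicates 1 and 2 at 12 h were level with 24 h, and replicate 3 was above them. Replicate 3 was highest in 22 of the 25 genes (88%). Without it the median was 0.28, Chac1 was at 0.60 and still called, and Aldh1l2 (0.55), Nupr1 (0.56) and Trib3 (0.53) dropped under 1.5-fold, while 21 members still rose. Aldh1l2 was under 1.5-fold also without 0 h replicate 1 (0.58).

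The C/EBP-ATF response element, searched as TGATGNAA on both strands, was present in 8 of 24 windows of the ATF4 list, or 33.3%, and in 2.14% of all windows. Atf3, highest in replicate 3 and itself an ATF4 target, has 1 match 110 bases before the RefSeq start site, and 1 match to the cyclic AMP response element, searched as TGACGTNA, 10 bases before it (chr1:191183334-191183583, minus strand). This start site lies inside the longer gene as annotated. Of all windows 4.97% held TGACGTNA, and of the immediate early list 3 of 31.
Atf3: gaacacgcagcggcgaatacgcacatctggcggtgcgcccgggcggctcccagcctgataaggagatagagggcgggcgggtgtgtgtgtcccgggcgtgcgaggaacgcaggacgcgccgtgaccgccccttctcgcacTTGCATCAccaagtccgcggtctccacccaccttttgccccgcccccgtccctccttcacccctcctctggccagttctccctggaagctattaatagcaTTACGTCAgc

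Cell cycle genes rose at 12 h, and the replication genes among them had medians close to each other at 12 and 24 h, with or without 12 h replicate 3. Of 38 replication and E2F target genes tested, 37 rose by the adjusted p and 17 were called higher, against 13.6% and 1.34% of all genes. Their medians were 0.56 at 12 h and 0.54 at 24 h. Without 12 h replicate 3 the 12 h median was 0.59, and 19 were called. Rrm2, a subunit of ribonucleotide reductase, measured 178.5, 198.2 and 198.4 CPM at 0 h, 321.5, 343.9 and 297.9 CPM at 12 h, and 320.2, 296.6 and 322.4 CPM at 24 h (log2 0.74 ± 0.05, edgeR adjusted p = 1.44e-07). Replicate 3 was the lowest of its 12 h libraries. Cdc6, a replication licensing factor (0.77), and Fen1, the flap endonuclease (0.81), were the other named members, and 84.2% of the exonic bases of Fen1 overlap a gene on the opposite strand. Of 30 mitosis genes, 29 rose, 2 of them past 1.5-fold, Aurkb (0.66) and Prc1 (0.59). Their median was 0.45 at 12 h and 0.56 at 24 h. Prc1 sat at the threshold and fell under it without 0 h replicate 1 (0.50), 12 h replicate 2 (0.58) or 12 h replicate 3 (0.55), and 11.1% of its exonic bases overlap a gene on the opposite strand. E2F motifs (TTTNNCGC, both strands) were in 17 of 37 windows of the replication list (45.9%) and in 8.41% of all windows.

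The remaining lists are set against the shares of all genes tested, of which 13.6% rose and 11.9% fell. Cholesterol synthesis genes rose in 19 of 24 cases with a median of 0.23, among them Acat2 (0.39) and Sqle, squalene epoxidase (0.33), and 3 of them came down again. FOXO and PI3K-repressed genes fell in 10 of 24 cases and rose in 2, with Sesn3 (−0.43) and Sesn1 (−0.33), stress-responsive inhibitors of mTORC1, and the median of −0.06 was −0.12 without replicate 3. Among androgen receptor and luminal genes 3 of 15 rose and 5 fell, with a median of 0.01, and the metalloreductase gene Steap4 (−0.65) was the 1 called. It was under 1.5-fold without 0 h replicate 1 (−0.58). NRF2 genes rose in 10 of 20 cases and fell in 2, with a median of 0.10 and with Hmox1, heme oxygenase, called at 0.76 and at 0.60 without replicate 3. SRF and YAP targets were split, with 5 of 23 higher and 6 lower and a median of −0.04. Clock genes rose in 6 of 16 cases and fell in 4, with a median of 0.06. Bhlhe40 (0.32), a repressor of the clock that also responds to hypoxia, came back down at 24 h (−0.33), and Arntl (0.39) did not (−0.02). Heat shock genes (4 of 23 higher, 2 lower, with Dnajb1 at 0.36 and Hsp90aa1 at 0.24), ribosome biogenesis genes (3 of 25 higher, 1 lower, with Nop58 at 0.16 and Rrp12 at −0.23) and TGF-β, BMP and ID genes (4 of 12 higher, 3 lower) had medians between −0.01 and 0.04. The counts for heat shock and ribosome biogenesis genes were close to or below the shares of all genes.

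**Figure D3:**
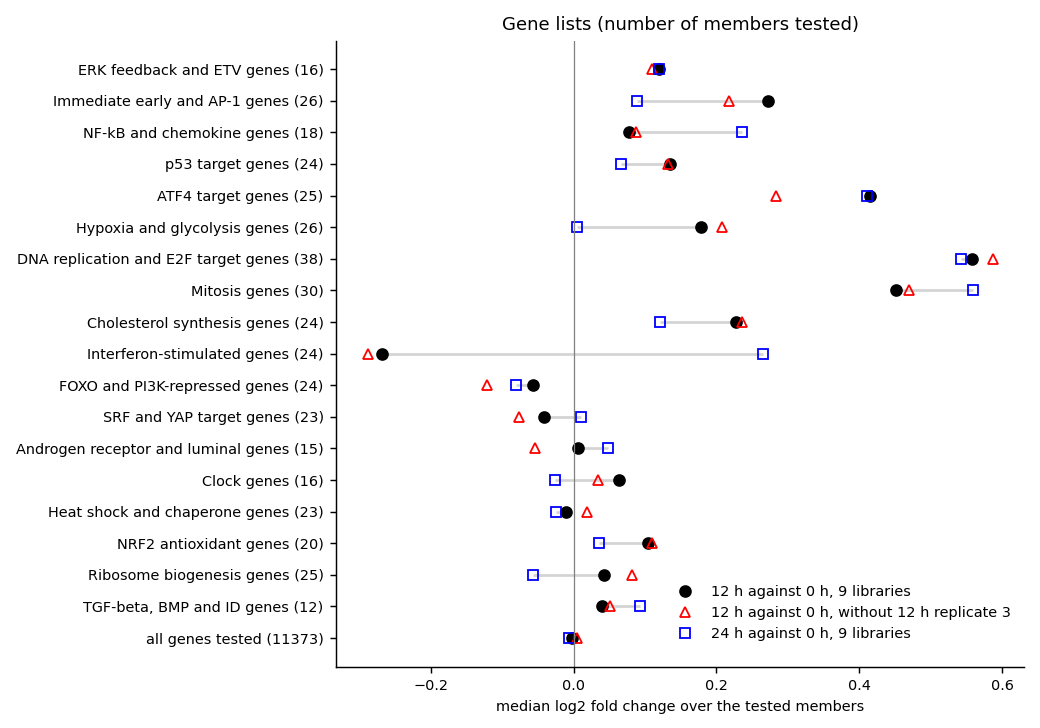
Median log2 fold change over the tested members of 18 gene lists and over all genes tested (horizontal axis), at 12 h against 0 h with 9 libraries and without 12 h replicate 3, and at 24 h against 0 h; both comparisons share the 0 h libraries. Grey lines join 12 and 24 h; the hypoxia median goes from 0.18 to 0.004 and the interferon-stimulated median from −0.27 to 0.26.

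Next, each library was set against the other libraries of its time point to measure how far 12 h replicate 3 stood apart. Among 9416 genes with a mean of at least 5 CPM, 32 in 12 h replicate 3 were 1.5-fold or more above the mean of the other 12 h libraries. By the same measure within its own time point, no other library had more than 4. The spread of log2 differences between a library and the mean of the others was 0.133 (SD over genes) for this library and 0.091 to 0.120 for the other 8. Eda2r (1.04 above the mean of the other 12 h libraries, log2), Atf3 (0.83), Plk3 (0.79), Klf2 (0.71), Relb (0.70), Cxcl5 (0.67) and Rab11fip5 (0.67) were among the 40 genes farthest above. The remainder included many genes for giant proteins, such as Eppk1, Lrp1, Syne2, Kmt2a, Ubr4 and Dst (these and Klf2 and Relb were named after their values were seen). Of the 40 genes, 18 have an annotated transcript longer than 12 kb (45%), as do 104 of 9258 genes of this level with a regular symbol (1.12%).

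The same was seen along the whole range of transcript lengths. In the 125 tested genes with a transcript over 12 kb, the median log2 difference from the other 12 h libraries was 0.33 in replicate 3, −0.21 in replicate 2 and −0.09 in replicate 1. For genes with transcripts of 1 to 2 kb it was −0.03 in replicate 3. The rank correlation between this difference and transcript length across genes was 0.29 in 12 h replicate 3 and −0.21 to 0.24 in the other 8 libraries, with the highest of these in 0 h replicate 2. At 12 h against 0 h, genes over 12 kb had a median log2 fold change of −0.15 with all libraries, −0.25 without replicate 3 and −0.02 once a length trend was removed from each library. What set this library apart was not tested. With the length trend removed, 262 genes were called, and 246 of the 261 were among them. The rises of Atf3, Eda2r and Plk3 in replicate 3 are of genes with transcripts of 1984, 4752 and 2512 bases.

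**Figure D4:**
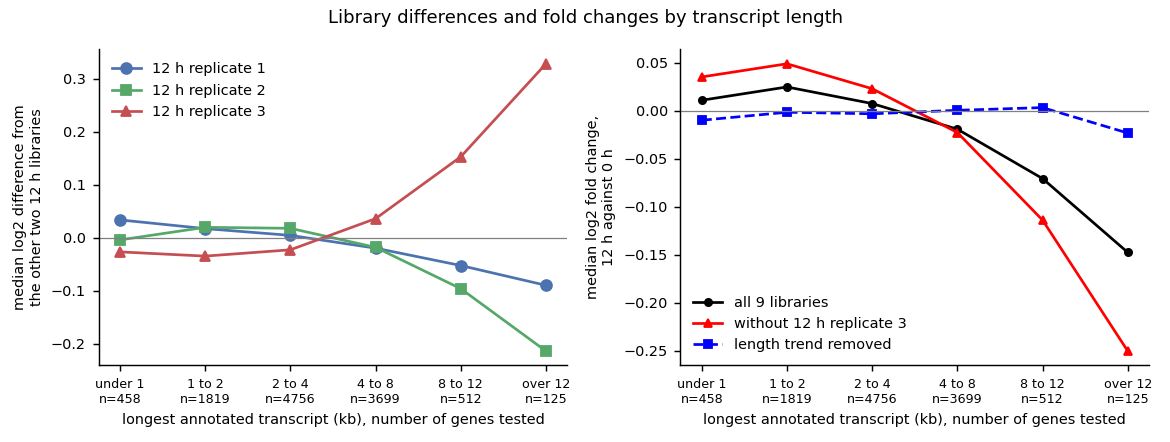
Left, median log2 difference of each 12 h library from the mean of the other 12 h libraries; right, median log2 fold change at 12 h against 0 h in 3 fits; both by length of the longest annotated transcript (horizontal axes, kb, with the number of genes tested). Replicate 3 climbs to 0.33 in the genes over 12 kb, and the fold change there is −0.15, −0.25 or −0.02 by fit.

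Replicate 3 lay farthest from the 0 h mean in 80 of the 152 called rises and in 56 of the 109 called falls, against 58 and 27 for replicate 2 and 14 and 26 for replicate 1. Leaving it out gave 231 calls, 134 higher and 97 lower, and 73 of the 261 calls were lost. Without replicate 1 there were 277 calls and 46 were lost, and without replicate 2 there were 246 and 64 were lost. The loss without a 0 h library was of the same order, with 91, 48 and 70 calls lost without replicates 1, 2 and 3. Among called genes of at least 5 CPM, the changes that shrank most without 12 h replicate 3 were those of Eda2r, Atf3, Plk3, Cxcl5, Rab11fip5 (1.45 to 1.21), Ptgs2, the inducible cyclooxygenase (0.61 to 0.41), Dusp8, a phosphatase of JNK and p38 (0.67 to 0.48), and Egr1. Dusp8 was under 1.5-fold without 0 h replicate 3 too (0.58). Of the 48 named genes that were called, 11 lost the call without this library.

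**Figure D5:**
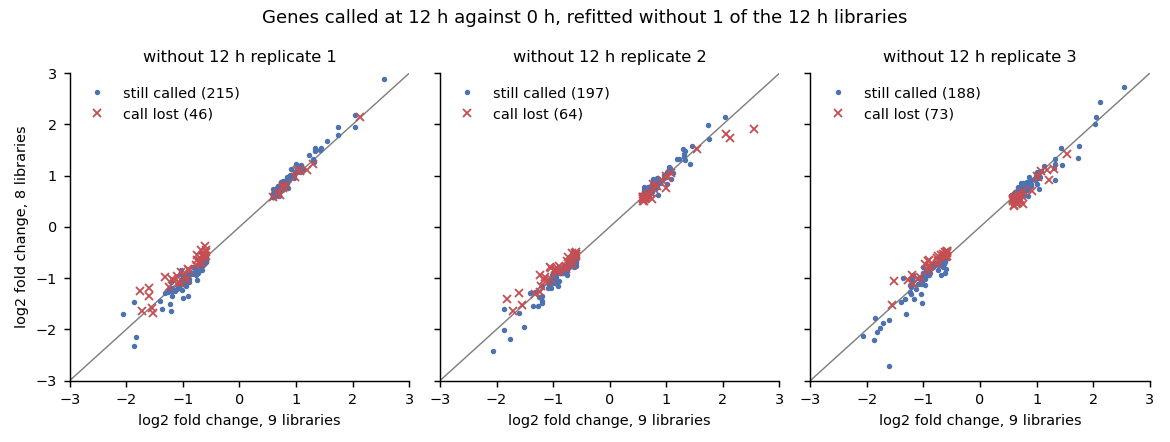
Log2 fold change at 12 h against 0 h of the 261 called genes with 9 libraries (horizontal axes) and without 1 of the 12 h libraries (vertical axes), 1 panel per library left out. Blue points were still called and red crosses were not: 46, 64 and 73 calls were lost without replicates 1, 2 and 3.

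Counts of transient genes by the adjusted p went up, not down, without this library. Under the 1.5-fold threshold the rises went from 5 to 3 and the falls from 9 to 12. With the adjusted p alone, 308 genes rose and came down and 238 fell and came up without 12 h replicate 3, against 245 and 132 with it, and 214 and 93 of the genes were shared. Without 12 h replicate 1 there were 109 and 55, and without 12 h replicate 2 210 and 107. Leaving out a 24 h library lowered the counts to 106, 123 and 109 rises and 61, 44 and 80 falls for replicates 1, 2 and 3. The 132 falls were also 93 without 0 h replicate 3 and 99 without 0 h replicate 2. With the 1.5-fold threshold, the transient rises numbered 9, 12 and 3 and the transient falls 4, 6 and 12 without replicates 1, 2 and 3 at 12 h, so the 14 genes depend on more libraries than replicate 3.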

How the data were processed

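Total RNA from 9 MyC-CaP samples was sequenced as paired-end 150 bp mRNA libraries. Per the labels and the methods, the authors trimmed reads with Cutadapt, aligned them with STAR to GRCm38.p6 and counted reads per GENCODE gene with featureCounts. The deposited values are raw counts per gene for 15552 genes, with no normalization, and whether counting used strand is not given in the sources used here. Replicate libraries were kept apart by the authors.

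Samples were grouped by labelled time. Genes were filtered with filterByExpr and scaled by TMM, and all 9 libraries were fitted together with the quasi-likelihood model of edgeR 4.0.16 (R 4.3.3); p-values were adjusted by Benjamini-Hochberg, and a call required an adjusted p of 0.05 and 1.5-fold. CPM are TMM-scaled, log2 CPM used a prior count of 2, and errors are SE of log2 fold changes. The SE come from the same fit, which includes the spread between libraries. At these depths, 3 counts equal 0.076 to 0.105 CPM. DESeq2 1.42.0 and limma 3.58.1 were alternatives, with those given in the closing section. Transcript length, GC content and overlaps came from GENCODE, where 15541 of 15552 identifiers matched. The fit was tested on simulated data, where 200 of 200 genes changed 2-fold were called, with 2 false calls among 11297 genes. The changed genes were drawn from those of at least 5 CPM, and no simulated library was made to stand apart. The simulation therefore does not cover weaker genes, smaller changes or a library such as 12 h replicate 3.

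Named were the 10 largest rises and falls among called genes of at least 5 CPM with non-overlapping libraries, all transient genes, up to 3 called members per list (2 with the lowest p where none was called), and the 8 genes of at least 5 CPM that shrank most without 12 h replicate 3. Predicted gene symbols were left out, and some genes that met these rules are not reported here. The comparison, the 18 lists and the rules were chosen with earlier results of these data known.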

Additional observations from a re-analysis of the deposited data

Results flagged for a closer look

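The genes below, 13 of the 14 with opposite called changes in the 2 steps, are set out here because their change turned direction between 0 to 12 h and 12 to 24 h. They were chosen by the edgeR calls in both steps, which share the 12 h libraries, so the values are a description. After a rise at 12 h, the log2 fold change from 12 to 24 h was −1.12 for Mansc1, −0.69 for Atf3, −0.66 for Krt13 and −0.65 for Adm. After a fall at 12 h it was 0.68 for Plpp3, 0.90 for Tle2, 1.11 for Oasl2, 1.13 for Msh5, 1.16 for Gm10800, 1.53 for Nupr1l, 1.57 for Irf7, 1.63 for Apol9b and 1.71 for Prkcb. Leaving glmTreat aside, both steps could be computed in 17 alternatives. Krt13 kept both calls in 16 of them and Adm in 15. Oasl2 and Msh5 kept them in 14, Irf7 and Tle2 in 13, and the others in 9 to 12.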

How the results depend on the processing

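The 261 calls, 152 higher and 109 lower, became 2896, 1547 and 1349 with no fold threshold. Under glmTreat, which tests against 1.5-fold, they became 4, 4 and 0, among them Cxcl1, Krt13 and Spp1, while 73 genes were lower at an unadjusted p under 0.05; DESeq2 called 93 lower. All other alternatives in scaling, filter, test, GC content and transcript length (the last chosen after seeing the data) kept these counts within 1.5 times, and leaving out 1 library gave 200 to 280, 115 to 182 and 85 to 115. The 5 transient rises and 9 transient falls were 8 and 15 with no filter on low counts and 245 and 132 with no fold threshold, and DESeq2 gave 3 rises. Leaving out 1 library gave 3 to 12 rises, lowest without 12 h replicate 3 or 24 h replicate 1 and highest without 12 h replicate 2 (9 without 12 h replicate 1). It gave 3 to 12 falls, with 3 without 0 h replicate 3 and 4 without 12 h replicate 1, 24 h replicate 1 or 24 h replicate 2. The cause was not tested. The main fit did not pair libraries by replicate number. Deviations of same-numbered libraries correlated by −0.07 to 0.13 over 9 pairs (mean 0.03). Those of other libraries correlated by −0.13 to 0.12 over 18 pairs (mean −0.02). The replicate block gave 268 calls, 155 higher and 113 lower, with 6 transient rises and 9 falls. Of the 48 named genes that were called, 31 were called in every alternative except glmTreat, which kept 4 of the 261 calls. Medians of gene lists moved by more than the spread between libraries in 34 of 270 cases. The interferon-stimulated median was −0.32 with no filter on low counts. Low counts limit the transient falls most: Prkcb had 3, 8 and 6 counts at 12 h.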
